A study of Mus musculus with 8 samples.

Results

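The 5-hydroxymethylcytosine (5hmC) peaks around 5 glial genes, Mbp, Sox10, Gfap, Olig1 and Olig2, were examined in the hippocampus of C57BL/6 mice. Members were all peaks of the 8 deposited lists that overlapped 1 of 4 fixed mm9 intervals, and 247 of the 393283 peaks did so. The intervals were chr18:82630000-82770000 for Mbp (140 kb, 168 peaks), chr15:78965000-79015000 for Sox10 (50 kb, 18 peaks), chr11:102730000-102780000 for Gfap (50 kb, 28 peaks) and chr16:91205000-91295000 for Olig1 and Olig2 together (90 kb, 33 peaks). The rule uses positions only, not measured values.

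The 8 samples formed 4 groups of 2. Aged enriched mice (18 months) had spent 5 h a day over 4 weeks in a roomy chamber fitted with objects to explore and a wheel, and aged control mice (18 months) had stayed in standard cages. Young enriched and young control mice (6 weeks) had the same 2 kinds of housing. All were of the same strain, and whether a group's samples were separate mice or pools is not stated in the labels, so p-values cover only how far these samples differ among themselves, and that spread may be technical. DNA fragments carrying 5hmC had been tagged with a modified glucose, biotinylated, captured and sequenced, so a peak marks a stretch where such fragments were enriched and gives no level per cytosine.

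Lists held 25548 to 78980 peaks and covered 0.556% to 3.51% of the autosomes, with the lowest coverage in the aged enriched samples. Aged enriched replicate 2 stood apart, where peaks had a median width of 430 bp, while the other lists had medians of 650 to 952 bp, and with 72.4% of its peaks at a score of 100 or more against 9.92% to 31.9%. Member peaks followed the lists: they numbered 17 and 17 in aged enriched, 38 and 23 in aged control, 31 and 42 in young enriched and 29 and 50 in young control samples. Per 10000 peaks of a list this was 5.39 to 7.06 member peaks in every sample. Since read numbers are unknown, values are given both as the percent of an interval under peaks and as relative density, which is that percent divided by the percent of the autosomes under peaks in the same list. A relative density of 1 means that an interval was covered as densely as the autosomes on average.

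As background, 5hmC is made from 5-methylcytosine by the Tet enzymes and is most abundant in neurons, where it lies mainly over gene bodies. Oligodendrocytes wrap axons in myelin. Olig1 and Olig2 are neighbouring genes for basic helix-loop-helix transcription factors of that lineage, and Olig2 is needed to specify it. Sox10 is an HMG-box transcription factor that drives the final differentiation of oligodendrocytes and activates Mbp, the gene of myelin basic protein, which compacts the myelin sheath. Gfap encodes the intermediate filament protein by which astrocytes are commonly identified. The tissue holds neurons, astrocytes, oligodendrocytes and other cells together, and in such bulk DNA a change in the share of a cell type and a change in 5hmC per cell cannot be told apart. No RNA was measured, so the tissue could not be checked against the expression of marker genes.

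The 250 bases before the gene start are shown for Gfap and Olig2 because the cytosines that usually carry 5hmC stand in CpG pairs, and these stretches differ widely in CpG content. They are RefSeq sequences of build GRCm38.p6, at chr11:102897201-102897450 on the minus strand for Gfap and at chr16:91225300-91225549 on the plus strand for Olig2, with every CpG in capitals.
Gfap: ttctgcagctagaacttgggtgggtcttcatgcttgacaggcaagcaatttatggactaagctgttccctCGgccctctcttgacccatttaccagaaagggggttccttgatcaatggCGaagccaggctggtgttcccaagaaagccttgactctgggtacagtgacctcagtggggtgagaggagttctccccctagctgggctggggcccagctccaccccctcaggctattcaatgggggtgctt
Olig2: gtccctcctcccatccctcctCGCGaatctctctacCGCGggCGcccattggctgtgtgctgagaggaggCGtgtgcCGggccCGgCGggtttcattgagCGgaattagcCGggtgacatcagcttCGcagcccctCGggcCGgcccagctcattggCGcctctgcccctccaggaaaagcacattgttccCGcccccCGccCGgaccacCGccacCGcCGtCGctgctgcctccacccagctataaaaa
The Gfap stretch held 2 CpG pairs and the Olig2 stretch 22, with GC contents of 55.6% and 66.8%. A CpG reads the same on both strands. Among the 32851 stretches of this length in the table the median was 6 CpG pairs, 81.2% held at least as many as Gfap and 14.8% at least as many as Olig2. Because these coordinates belong to another build than the mm9 peaks, no peak was set on a promoter, an exon or an intron. RefSeq (GRCm38.p6) lists Galr1 and Zfp236 as the protein-coding neighbours of Mbp, and Polr2f and Pick1 as those of Sox10. Those of Gfap are Fam187a and Kif18b. Olig2 and Olig1 adjoin each other, with 4932438H23Rik before Olig2 and Ifnar2 after Olig1. Peaks inside an interval may lie in a neighbour.

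**Figure D1:**
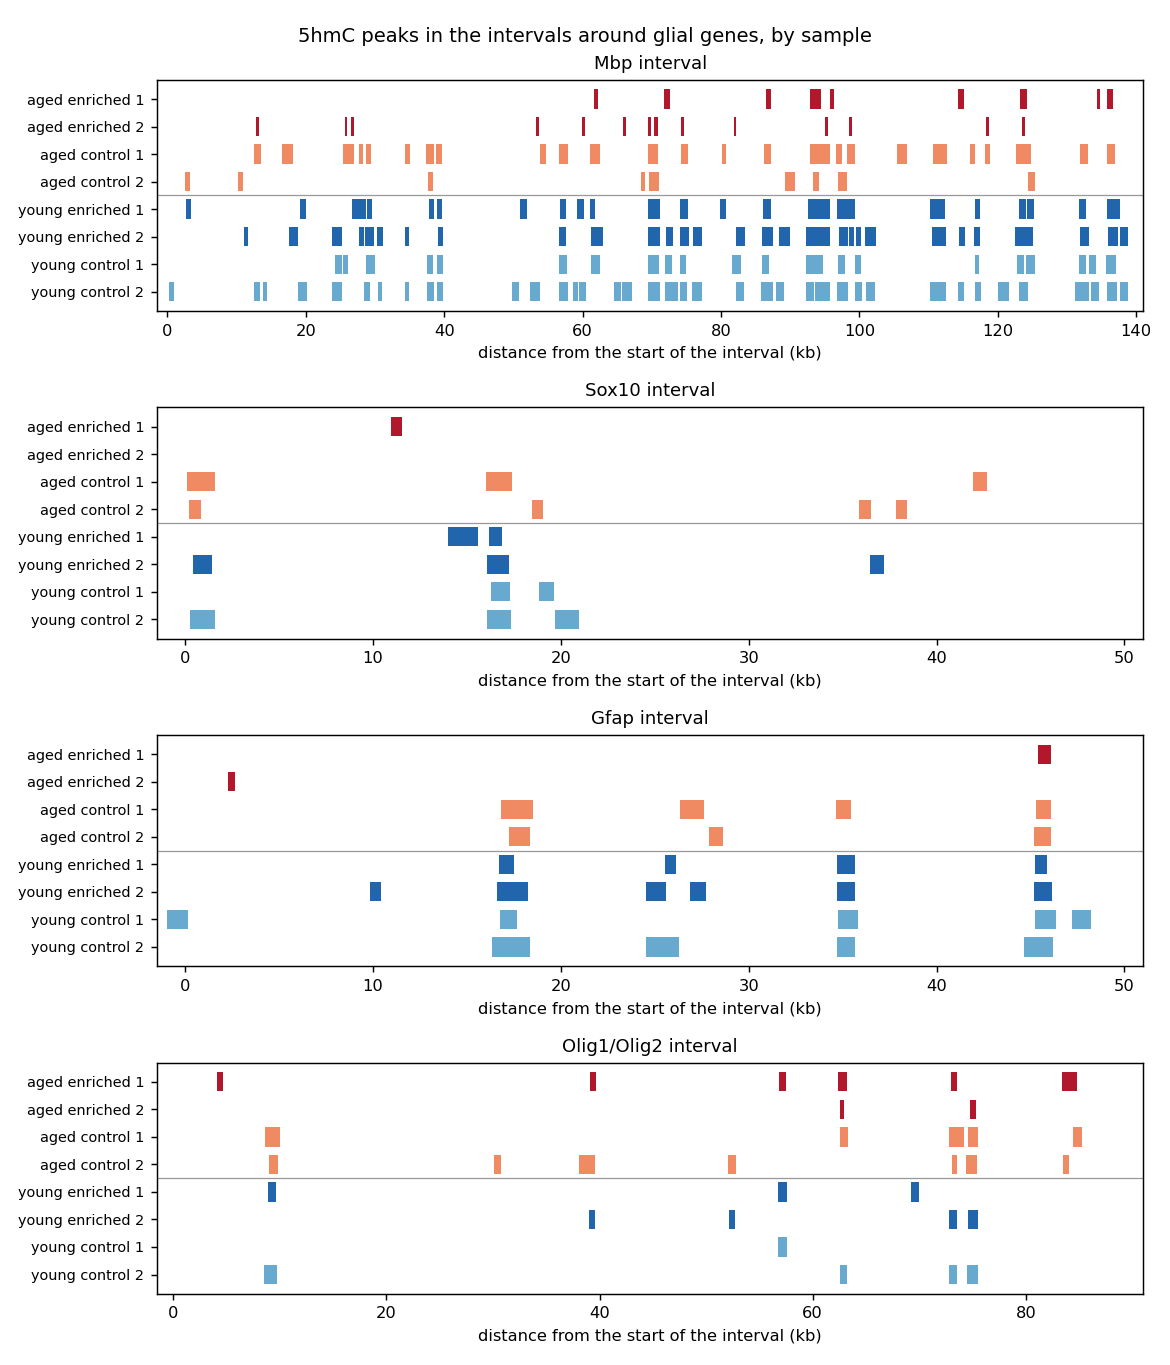
Every member peak as a bar at its distance in kb from the start of its interval, with 1 row per sample, aged samples above the line and young samples below it. Mbp held 168 of the 247 peaks, and no peak of aged enriched replicate 2 fell in the Sox10 interval.

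The Olig1 and Olig2 interval had a higher relative density of 5hmC peaks in every aged sample than in any young sample, although the difference did not pass the genome-wide test with all samples. Its relative density was 6.91 and 1.99 in aged enriched and 2.54 and 5.12 in aged control samples, against 1.18 and 1.24 in young enriched and 0.539 and 1.18 in young control samples. All 4 aged values lay above all 4 young values, a pattern that 1.89% of the 10615 genomic windows of the same length also showed. The mean relative density was 4.14 ± 2.30 over the aged samples, against 1.03 ± 0.331 over the young samples (SD, n = 4 each). On the log2 scale, with 0.5 added to the relative density, the difference was 1.49 ± 0.39 (SE), and an exact permutation test of this interval alone gave p = 0.0286, the smallest that 4 samples against 4 allow.

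The genome-wide test was limma. It was fitted to 9688 rows, the 100 kb windows with a mean relative density of at least 0.5 together with the 4 intervals, and gave an unadjusted p of 0.00192 and a Benjamini-Hochberg adjusted p of 0.606 for Olig1 and Olig2. In this fit 0% of rows were called higher and 0% lower in aged samples, while 7.93% (768 rows) had an unadjusted p under 0.05. Without aged enriched replicate 2 the difference was 1.88 and passed (limma adjusted p = 0.00125), in a fit that called 1.24% of rows higher and 3.64% lower in aged samples. That fit left aged enriched replicate 1, whose relative density of 6.91 was the highest of the 8, as the lone aged enriched sample. Its group then had no spread of its own and was assumed to vary like the others, so no conclusion is drawn from that pass. The 2 aged enriched lists were the shortest of the 8. The part of list length and of the narrow peaks of aged enriched replicate 2 in the result was not tested. Adjusted p-values without any other 1 sample ran from 0.125 to 0.98.

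In absolute terms the ages overlapped at Olig1 and Olig2, and without division by the list the log2 difference was 0.60 (limma adjusted p = 0.318). Peaks covered 5.13% and 1.11% of the interval in aged enriched and 6.03% and 6.52% in aged control samples, against 2.67% and 3.08% in young enriched and 0.986% and 4.13% in young control samples. Aged enriched replicate 2 was below 3 of the 4 young samples in this measure. Peak numbers were 6 and 2 in aged enriched, 6 and 7 in aged control, 3 and 4 in young enriched and 1 and 4 in young control samples. Counted per 10000 peaks of the list, aged enriched replicate 2 (0.649) fell below young enriched replicate 2 (0.673), so the ages overlapped in this measure too.

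The same separation by relative density appeared in lists cut to equal length and among peaks with scores of at least 100. With the 25548 highest-scoring peaks of each list, relative densities were 6.91 and 2.39 in aged enriched and 2.53 and 4.69 in aged control samples, against 0 and 1.35 in young enriched and 0 and 0.777 in young control samples (a pattern of 1.77% of windows of this length). With scores of at least 100 they were 14.1, 2.72, 1.82 and 8.29 in aged samples, in the same order, against 0, 1.16, 0 and 0.784 in young samples (0.301% of windows). In these fits limma gave log2 differences of 2.29 (adjusted p = 0.28) and 2.70 (adjusted p = 0.843). The values at scores of at least 100 rest on 1, 2, 1 and 2 peaks in the aged samples and 0, 1, 0 and 1 in the young samples. Such scores were held by 72.4% of all peaks in aged enriched replicate 2 and by 9.92% in aged enriched replicate 1. The cut to equal length also treated lists unequally. Aged enriched replicate 1, the shortest list, kept all its peaks, with scores down to 51.75 in this interval. Young enriched replicate 1 (highest score here 63.69) and young control replicate 1 (51.95) lost every peak in the interval.

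Peaks at Olig1 and Olig2 lay at many sites. Regions were made by joining the peaks of the 8 lists wherever they shared 1 bp or more, and the 12 regions of the Olig1 and Olig2 interval each had a peak in at most 5 samples. The region with the most summed peak length, chr16:91279410-91280503, had a peak in aged enriched replicate 2 (score 159), both aged control samples (71.1 and 121), young enriched replicate 2 (103) and young control replicate 2 (129). The nearby region chr16:91277742-91278553 also had peaks in 5 samples, 3 aged and 2 young. Between these regions, chr16:91278563-91279223 had a peak in aged control replicate 1 only. Towards the end of the interval, chr16:91288404-91290265 had peaks in 3 aged samples, with 1425 bp in aged enriched replicate 1 and 865 and 598 bp in the aged control samples, and in no young sample. This last region was picked out after its values were seen.

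**Figure D2:**
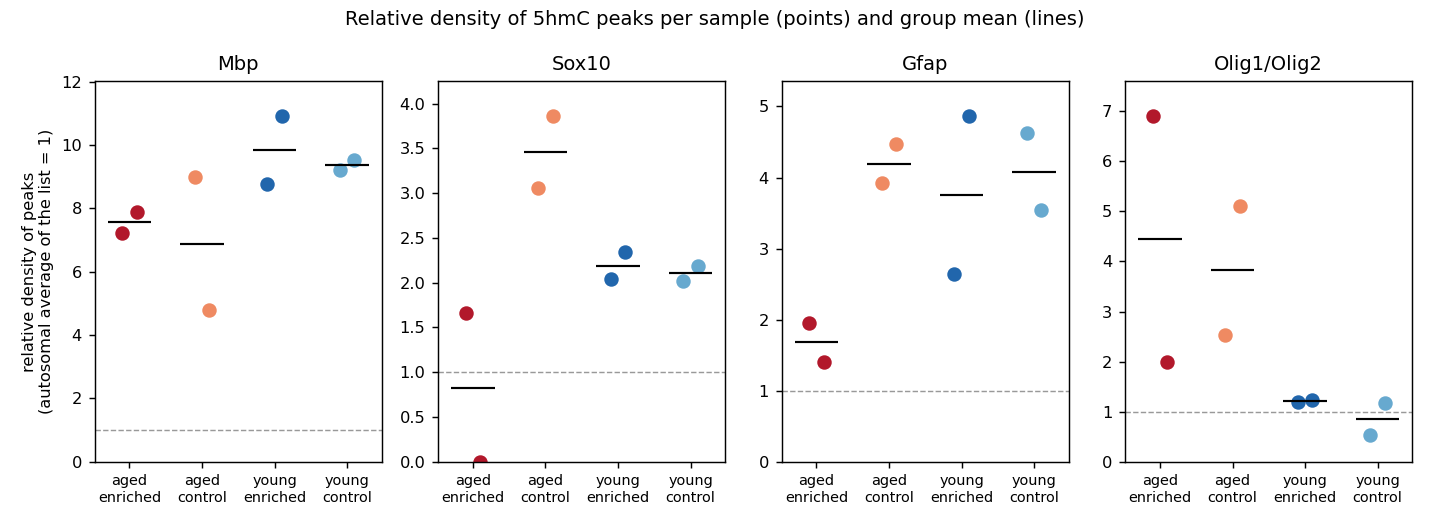
Relative density of 5hmC peaks in each interval, with a point per sample, a line at the mean of each group of 2 and a dashed line at the autosomal average of 1. At Olig1 and Olig2 the aged samples lie between 1.99 and 6.91 and the young samples between 0.539 and 1.24, while at Mbp all samples lie between 4.79 and 10.9.

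At Sox10 the aged enriched samples had 1 peak and no peak. Peaks covered 1.23% and 0% of it in aged enriched and 7.26% and 4.93% in aged control samples, against 4.60% and 5.84% in young enriched and 3.70% and 7.70% in young control samples. The only aged enriched peak was 616 bp wide with a score of 52.1, close to the lowest score in its list. Both aged enriched samples were below both aged control samples in coverage, as in 47.9% of windows of this length. In relative density the aged enriched values of 1.66 and 0 were below the aged control values of 3.06 and 3.87, which 17.6% of these windows also showed. In equally long lists the aged groups overlapped, at 1.66 and 0 in aged enriched and 4.41 and 1.31 in aged control samples, and they overlapped with scores of at least 100 as well. With all peaks, young enriched samples (2.04 and 2.34) and young control samples (2.02 and 2.19) overlapped. In equally long lists the young groups did not overlap, at 2.54 and 3.29 in young enriched and 1.67 and 1.65 in young control samples. There 11.7% of windows of this length also had both young enriched above both young control values.

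No contrast at Sox10 passed limma with all samples. Enriched minus control was −0.94 ± 0.42 (SE; limma adjusted p = 0.738). It was −0.44 in equally long lists, −0.58 with scores of at least 100, −0.48 in intervals widened by 20 kb and −1.51 with 0.1 added in place of 0.5. With all peaks, the interaction, the aged housing difference minus the young one, was −1.97 ± 0.84 (SE; limma adjusted p = 0.769). Leaving out aged enriched replicate 1 left the sample without peaks as the lone aged enriched one. The values then were −1.47 for housing (limma adjusted p = 0.013) and −3.02 for the interaction (limma adjusted p = 0.0118), in a fit that called 2.4% of rows lower and 0.33% higher for housing, and 2.14% lower and 0.289% higher for the interaction. Without aged enriched replicate 2 they were −0.41 and −0.91. Aged minus young was −0.39 ± 0.42 (SE; limma adjusted p = 0.832), and 0.14 without aged enriched replicate 2.

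The most shared Sox10 region, chr15:78981031-78982388, had a peak in all 4 young samples, with scores of 51.2 and 121 in young enriched and 76.7 and 154 in young control samples. Aged control replicate 1 (109) was the only aged sample with a peak there. It also had the greatest summed peak length of the 9 regions in this interval. Of the others, chr15:78965104-78966607 at the start of the interval had peaks in both aged control samples and in 2 young samples, and 5 of the 9 regions had a peak in 1 sample only, which is 55.6% against 46.7% of all 156744 merged regions of the genome.

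Mbp was among the most densely covered stretches of the genome in every sample. Peaks covered 5.37% and 4.38% of the interval in aged enriched and 21.4% and 6.10% in aged control samples, against 19.7% and 27.2% in young enriched and 16.9% and 33.5% in young control samples. Of the 17573 windows of the same length, 119 (0.677%) had a mean coverage at least as high as the 16.8% of Mbp, and the median window had 0.428%. By single sample, the share of windows at least as covered ran from 0.319% in young enriched replicate 2 to 5.44% in aged control replicate 2. Relative density was 7.23 and 7.88 in aged enriched, 8.99 and 4.79 in aged control, 8.75 and 10.9 in young enriched and 9.22 and 9.53 in young control samples.

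Dense coverage began within the Mbp interval. The 140 kb before it had a relative density of 0 to 1.80 over the 8 samples, the interval 4.79 to 10.9, and the 140 kb after it 3.04 to 8.77. Aged control replicate 2 was the only sample with a higher value after the interval (8.77) than in it (4.79). Within the interval, the 10 kb from 90 to 100 kb were the most covered. There 26.4% ± 17.1 was under peaks over the aged samples, against 53.3% ± 8.75 over the young samples (SD, n = 4 each). These percents are not divided by the list. The ages overlapped, with aged values up to 49.2% and young values from 40.3%. Only 1 sample had a peak between 40 and 50 kb.

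**Figure D3:**
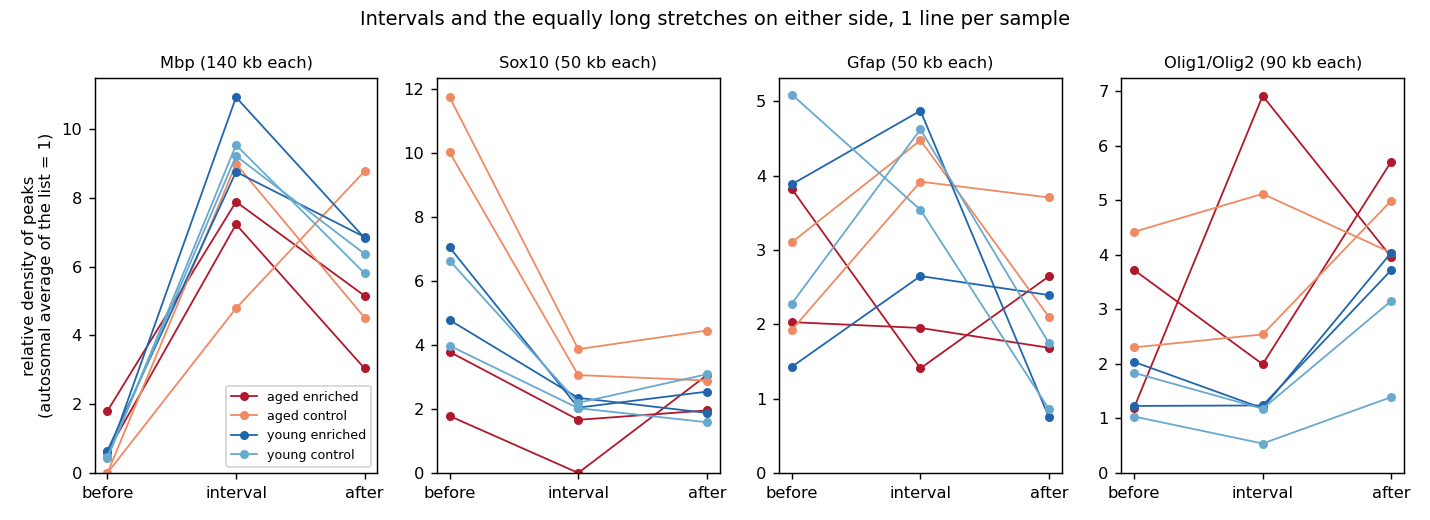
Relative density in each interval and in the stretches of equal length before and after it, with a line per sample. The Mbp interval rises above the stretch before it in all 8 samples, and Sox10 lies below the stretch before it in all 8.

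At Mbp, 2 regions had a peak in all 8 samples, 4.35% of its 46 regions, against 1.31% of all merged regions. The wider one, chr18:82722275-82726360, spanned 4086 bp and also had the greatest summed peak length. Its highest scores were 139 and 152 in aged enriched, 302 and 55.4 in aged control, 260 and 322 in young enriched and 191 and 197 in young control samples. The second, chr18:82752441-82755424, had scores of 108 and 107 in aged enriched, 201 and 92.2 in aged control, 88.3 and 220 in young enriched and 107 and 114 in young control samples. Scores depend on the depth of each library and are given here only to show that a peak was present and how far above the lowest score it lay.

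Another 6 Mbp regions had a peak in 6 or 7 samples, and all 4 young samples were present in each of them. Together 8 of the 46 regions (17.4%) had a peak in 6 or more samples, against 8.52% in the genome. One of them, chr18:82699376-82701239, lacked only aged enriched replicate 1, and chr18:82726660-82730393 lacked the same sample. A further 12 regions (26.1%) had a peak in 1 sample only, against 46.7% in the genome. Regions had a median width of 1385 bp at Mbp and 892 bp in the genome, and the part of width in this sharing was not tested.

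Relative to its list, the age difference at Mbp did not pass the genome-wide test. The mean was 7.22 ± 1.78 over the aged samples, against 9.61 ± 0.935 over the young samples (SD, n = 4 each), with a log2 difference of −0.42 ± 0.21 (SE; limma adjusted p = 0.671). The exact permutation test of this interval alone gave p = 0.0571. The groups overlapped, since aged control replicate 1 (8.99) was above young enriched replicate 1 (8.75). Without division by the list the log2 difference was −1.58 and passed (limma adjusted p = 0.00421), in a fit that called 35.7% of rows lower and 0.0103% higher in aged samples and whose median row was at −1.05. Housing (0.12 ± 0.21 SE, limma adjusted p = 0.905) and the interaction (0.13 ± 0.43 SE, limma adjusted p = 0.965) were both smaller than their errors.

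Gfap had few peaks in the aged enriched samples and several in all others. Peaks covered 1.45% and 0.782% of the interval in aged enriched and 9.31% and 5.70% in aged control samples, against 5.97% and 12.1% in young enriched and 8.45% and 12.4% in young control samples. Coverage in both aged enriched samples was below that in both aged control samples, as in 47.9% of windows of this length. Relative density was 1.95 and 1.41 in aged enriched and 3.92 and 4.47 in aged control samples, without overlap. In relative density 17.6% of windows of this length also showed this. In young enriched samples it was 2.65 and 4.87, and in young control samples 4.62 and 3.54, so the young groups overlapped.

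Over both ages, enriched minus control was −0.63 ± 0.29 (SE) at Gfap, with a limma adjusted p of 0.738 and an exact permutation p of 0.143 for this interval alone. In this contrast 0% of rows were called in either direction and 6.5% had an unadjusted p under 0.05. In lists of equal length the 2 kinds of housing did not overlap, with relative densities of 1.95 and 1.69 in aged enriched and 1.60 and 2.47 in young enriched samples, against 4.62 and 6.09 in aged control and 5.16 and 6.86 in young control samples. This held for 1.23% of windows of the same length. limma gave −1.35 there, with an adjusted p of 0.484. With scores of at least 100 they did not overlap either, at 0 and 1.92 in aged enriched and 0 and 3.72 in young enriched samples, against 4.01 and 12.4 in aged control and 3.80 and 6.93 in young control samples, a pattern of 0.797% of windows. limma gave −2.38 there, with an adjusted p of 0.9999. These values rest on 0 and 1 peaks in aged enriched and 0 and 1 in young enriched samples. The control samples had 1 and 2 such peaks when aged and 1 and 3 when young. The difference was smaller than the −0.63 of the full lists in intervals widened by 20 kb (−0.34, limma adjusted p = 0.817) and by number of peaks (−0.37, limma adjusted p = 0.847). Aged minus young was −0.44 ± 0.29 (SE; limma adjusted p = 0.715) and the interaction −0.97 ± 0.57 (SE; limma adjusted p = 0.795).

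At Gfap, the region with the greatest summed peak length, chr11:102746355-102748534, was under a peak in every aged control, young enriched and young control sample and in neither aged enriched one, with scores of 120 and 143 in aged control, 73.9 and 128 in young enriched and 68.5 and 223 in young control samples. That pattern occurred in 1 of the 77 regions of the 4 intervals (1.30%) and in 1.52% of all merged regions. The region chr11:102764631-102765818 had a peak in all 4 young samples and in aged control replicate 1 (50.6). A peak in 7 samples, all but aged enriched replicate 2, was found at chr11:102774642-102776372, with scores of 87.0 in aged enriched replicate 1, 60.3 and 126 in aged control, 59.3 and 71.6 in young enriched and 134 and 114 in young control samples.

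None of the 77 regions separated the study's factors completely. A peak in all 4 aged and no young samples was found in 0 of them, against 0.00957% of all merged regions, and the reverse in 0, against 0.894%. A peak in all 4 enriched and no control samples was found in 0, against 0.014%, and the reverse in 0, against 0.209%. Counts of 0 among 77 regions are near these background shares. In 49 of the 77 regions (63.6%) both aged enriched samples lacked a peak, against 68.9% in the genome.

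The age estimates of the 4 intervals differed in direction, and none passed limma in relative density with all samples. Log2 differences were 1.49 at Olig1 and Olig2, −0.39 at Sox10, −0.42 at Mbp and −0.44 at Gfap, beside a median of −0.081 over all 9688 rows. With housing they were 0.22 at Olig1 and Olig2, −0.94 at Sox10, 0.12 at Mbp and −0.63 at Gfap, beside a median of −0.015. Interaction values were −0.32, −1.97, 0.13 and −0.97 in the same order, beside a median of −0.043, with 0% of rows called and 6.29% at an unadjusted p under 0.05. Whether the intervals differed from each other was not tested.

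**Figure D4:**
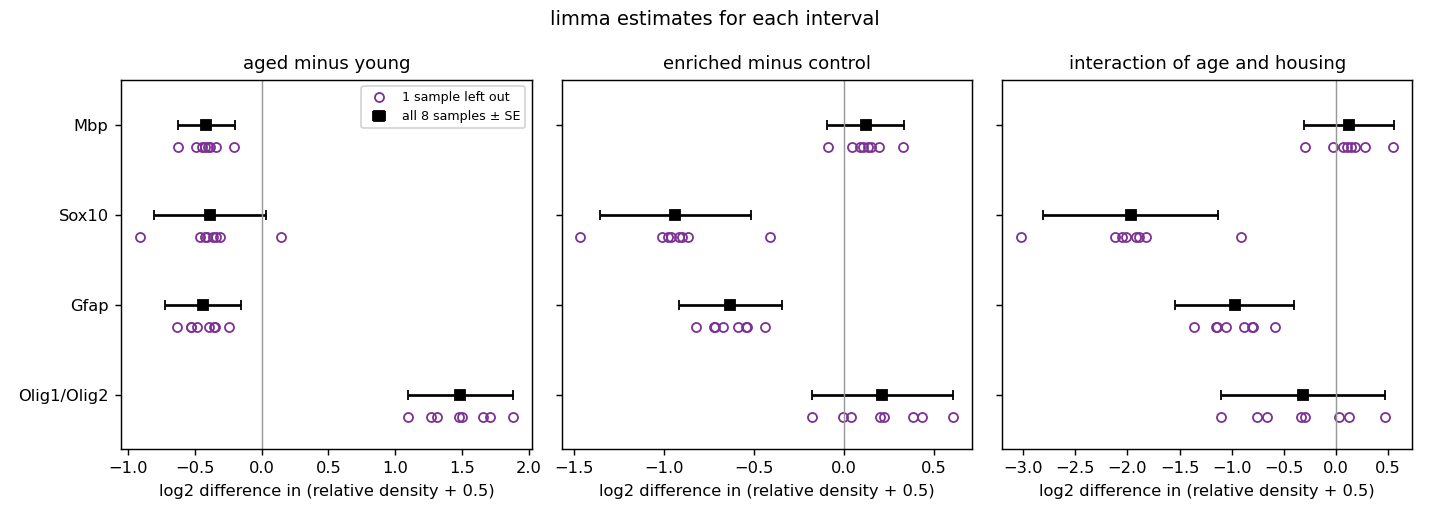
limma log2 differences in relative density with all 8 samples (squares, bars ± SE) and with 1 sample left out at a time (open circles), for age, housing and their interaction. At Olig1 and Olig2 the age difference stays between 1.09 and 1.88 without any 1 sample, while at Sox10 the same difference ranges from −0.91 to 0.14.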

How the data were processed

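Each of the 8 files is a list of peaks with a position, a name and a score, deposited by the authors per sample. Per the submitters' processing notes, build mm9 was used with MACS 1.4.2, Bowtie 0.12.9 and CASAVA 1.4. Caller settings, background library and read numbers were not found in the labels, so depth is unknown. The score is the authors' value per peak as deposited, with a lowest value of 50 to 50.3 in a list. It was used to describe, rank or filter peaks within a list. The filter at 100 was the same for all lists, and the filtered lists were compared between samples. The share of peaks passing it ran from 9.92% to 72.4% of a list. Coordinates are printed counted from 1.

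Length under peaks was computed for the 4 intervals and for 100 kb windows of the 19 autosomes, each counted up to its last peak, and divided by the list's autosomal average. log2(relative density + 0.5) was tested with limma 3.58.1 (R 4.3.3, intensity trend, 4 groups sharing 1 spread, Benjamini-Hochberg adjustment, threshold 0.05), after testing the script on simulated data. The pseudocount shrinks changes at low density. Labels share the numbers 1 and 2, which were not used to pair samples.

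The members, lists and tests were chosen with earlier results of these data known. Regions named were those with a peak in all 8 samples, those separating an age or a housing completely and the one with the most summed peak length per interval; other regions named were chosen after their values were seen. Further glial and neuronal genes were to be added given mm9 gene coordinates and were not analysed here. Merged regions at the edge of an interval can include peaks just outside it. Alternatives in scaling, scores, list length, pseudocount, filter, window, interval bounds, weights, replicate block and samples left out were computed.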

Additional observations from a re-analysis of the deposited data

Results flagged for a closer look

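Values were examined in 32 sets of 4 samples (the 4 aged, young, enriched or control samples in each interval and measure), and 4 held a sample far from the other 3. Chance flags about 1 in 20 such sets, and the sets share samples. At Mbp, aged control replicate 1 had 21.4% of the interval under peaks, against 4.38% to 6.10% in the other aged samples. In relative density at Mbp, aged control replicate 2 had 4.79, against 8.99 to 9.53 in the other control samples. At Olig1 and Olig2, young control replicate 1 had a relative density of 0.539, against 1.18 to 1.24 in the other young samples, and aged enriched replicate 1 had 6.91, against 1.18 to 1.99 in the other enriched samples. Without young control replicate 1 the age difference there was 1.32, and without aged enriched replicate 1 it was 1.09, against 1.49 with all samples.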

How the results depend on the processing

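Of 152 values under alternatives other than leaving out a sample, 139 kept their direction and their side of the threshold, as did 84 of 96 with 1 sample left out. No contrast passed in the main fit, so keeping the side of the threshold meant not passing. Some alternatives keep the main estimate, so its direction could not change in them. These are the missing filter, 1 Mb windows, array weights, the replicate block and the permutation test. The cause of the exceptions was not tested, except where named. At Olig1 and Olig2 the age difference of 1.49 passed against 1 Mb windows (limma adjusted p = 0.0126), where the spread comes from windows longer than the interval. The exact permutation test there gave p = 0.0286 and was counted among the exceptions because this is under 0.05. That p is not adjusted for the number of intervals and contrasts tested. Without division by the list, age passed at Mbp (−1.58) and Gfap (−1.49) and was 0.60 (limma adjusted p = 0.318) at Olig1 and Olig2, and housing turned at Mbp (−0.60) and Olig1 and Olig2 (−0.40), as did the interaction at Mbp (−1.13). That scaling moved the median of all rows to −1.05 for age, −0.60 for housing and −1.02 for the interaction. Age turned at Sox10 in intervals widened by 20 kb (0.079) and at Gfap with scores of at least 100 (0.015). The interaction turned at Mbp in widened intervals (−0.042) and in equally long lists (−0.27), at Gfap in equally long lists (0.044) and at Olig1 and Olig2 with scores of at least 100 (0.42).

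With 1 sample left out, age ran from −0.63 to −0.21 at Mbp, −0.91 to 0.14 at Sox10, −0.63 to −0.25 at Gfap and 1.09 to 1.88 at Olig1 and Olig2. Housing ran from −0.089 to 0.33, −1.47 to −0.41, −0.82 to −0.44 and −0.18 to 0.61 in the same order, and the interaction from −0.30 to 0.55, −3.02 to −0.91, −1.36 to −0.59 and −1.10 to 0.47. A group then has 1 sample, assumed to vary like the others.

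Regions were also formed anew from only the peaks with scores of at least 100. This gave 28 regions at Mbp (46 with all peaks), 1 at Sox10 (9), 4 at Gfap (10) and 5 at Olig1 and Olig2 (12). Then 0 rather than 2 Mbp regions had a peak in all 8 samples. In 6 or more samples, 2 rather than 8 Mbp regions and 0 rather than 2 Gfap regions had a peak. With the replicate block, limma again called 0 rows and gave 1.49 at Olig1 and Olig2 (adjusted p = 0.616), and it changed no call. Deviations of same-numbered samples were nearly uncorrelated over rows (correlations of −0.042 to 0.059). These values were already divided by the list. The check therefore cannot show a pairing in list length or in few rows, and whether the numbers pair samples stays unknown. Quantile normalization, chosen after seeing the data, changed no call at the intervals. The overlap of groups in equally long lists and at scores of at least 100 was also examined after seeing the data. Array weights were lowest in aged enriched samples (0.389) and highest in young enriched samples (1.89).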
